A study of Mus musculus with 6 samples.

Results

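Sertoli cells, the somatic cells that surround germ cells in the seminiferous tubules, secrete or display signals on which germ cells depend. Here 10 niche factors were followed: Kitl (row KITL), Gdnf (GDNF), Fgf2 (FGF2), Csf1 (CSF1), Cxcl12 (CXCL12), Bmp4 (BMP4), Pdgfa (PDGFA), Dhh (DHH), Jag1 (JAG1) and the transcription factor Etv5 (ETV5). They were taken by row name from the normalized expression table, and all 10 names were found among 30774 rows. The genes were chosen with earlier results of these data known. Whole testes of C57BL/6 male mice aged 12 days were measured on 3 ScAtrxKO arrays and 3 wild-type arrays. In ScAtrxKO mice a floxed Atrx gene was deleted by Cre under the AMH promoter, which is active in Sertoli cells, so other cells of the testis keep the gene, and the wild-type label gives neither a floxed allele nor Cre. The methods give 3 testes of each genotype, but neither they nor the labels state whether separate animals gave these 3 samples. The p-values therefore reflect only the spread among these samples, which may not be a spread among animals.

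Germ cells receive these factors through receptors of their own. KIT ligand keeps differentiating spermatogonia alive through KIT, GDNF sustains the self-renewal of spermatogonial stem cells through GFRA1 and RET, and FGF2 acts beside GDNF through FGF receptors. CSF1 and CXCL12 act through CSF1R and CXCR4, BMP4 through BMP receptors and JAG1 through Notch, while DHH and PDGFA leave the Sertoli cell mainly for Leydig and peritubular cells. ETV5 is a transcription factor that Sertoli cells need to keep the stem cell niche and that GDNF and FGF2 also switch on in spermatogonia.

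Csf1 was the only niche factor that passed the test, and it was higher in ScAtrxKO testes. Cxcl12 had a larger difference in the same direction on all arrays but was never detected, so it did not enter the test. Dhh and Pdgfa had differences near 0 and were detected on every array. The promoters of Cxcl12 and Csf1 are shown because these genes carry the differences, and that of Dhh because its level did not separate the genotypes. Each is the RefSeq window from 250 bases before to 50 bases after the transcription start, 5′ to 3′ on the gene's strand, with GC boxes (GGGCGG on either strand) in capitals.

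Cxcl12 promoter, chr6:117168285-117168584 (GRCm38.p6, plus strand): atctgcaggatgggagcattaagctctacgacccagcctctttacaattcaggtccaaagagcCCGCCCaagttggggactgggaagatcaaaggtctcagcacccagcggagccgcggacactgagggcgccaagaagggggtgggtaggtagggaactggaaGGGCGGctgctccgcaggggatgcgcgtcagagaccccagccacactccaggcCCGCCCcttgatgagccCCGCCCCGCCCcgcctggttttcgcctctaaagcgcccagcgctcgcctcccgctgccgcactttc
Csf1 promoter, chr3:107760420-107760719 (GRCm38.p6, minus strand): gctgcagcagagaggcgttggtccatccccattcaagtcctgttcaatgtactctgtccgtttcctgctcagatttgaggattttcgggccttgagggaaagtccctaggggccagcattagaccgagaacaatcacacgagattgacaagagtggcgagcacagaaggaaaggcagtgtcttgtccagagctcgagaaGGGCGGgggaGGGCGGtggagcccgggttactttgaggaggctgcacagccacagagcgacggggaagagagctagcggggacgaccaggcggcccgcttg
Dhh promoter, chr15:98898491-98898790 (GRCm38.p6, minus strand): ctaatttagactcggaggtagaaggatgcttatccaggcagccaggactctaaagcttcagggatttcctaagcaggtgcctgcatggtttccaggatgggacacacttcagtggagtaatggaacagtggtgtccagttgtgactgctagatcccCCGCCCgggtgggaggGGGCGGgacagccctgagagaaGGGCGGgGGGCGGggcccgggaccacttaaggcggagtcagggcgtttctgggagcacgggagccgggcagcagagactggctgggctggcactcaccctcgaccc

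The Cxcl12 window held 5 GC boxes, the Dhh window 4 and the Csf1 window 2. All 10 niche factors matched RefSeq by symbol, with 13 windows in all because some genes have several starts. A GC box was found in 9 of the 13 windows (8 of the 10 genes), against 35.7% of 32851 promoter windows of the same length. The median GC content was 62.7% in the 13 windows and 52.7% in all windows. A G-quadruplex pattern, meaning 4 runs of at least 3 G separated by 1 to 7 bases on either strand, was found in 6 of the 13 windows (5 of the 10 genes) and in 18.6% of all windows, but in none of the windows of Cxcl12 and Csf1. The sequence AGAACA on either strand, one arm of the element that the androgen receptor binds, was found once in the Csf1 window and once in a Gdnf window, 2 of the 13, and in 19.0% of all windows. TATAAA was present for Kitl and Gdnf (13.6% of all windows) and CCAAT for Gdnf and Etv5 (37.4%). These matches describe the letters only, and no binding was measured.

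The arrays had mean intensities of 350, 469 and 458 for ScAtrxKO and of 368, 376 and 381 for wild-type testes before normalization, so intensities were also compared after scaling each array to the median of the rows detected on all 6 arrays. Atrx (row ATRX) was detected on 0 of the 6 arrays and could not check the genotypes. Summed over 11 Sertoli cell markers, the scaled intensity ranged from 40525 to 43208 in ScAtrxKO testes and from 41584 to 43291 in wild-type testes, and 1 of the 11 rose. Sums did not overlap for several other cell types. Macrophage markers summed to 6909 to 7961 in ScAtrxKO testes and 2592 to 3849 in wild-type testes (11 of 11 rose), Leydig cell markers to 5370 to 9305 and 3188 to 4438 (3 of 6 rose), and endothelial markers to 1483 to 1606 and 959 to 1081 (4 of 6 rose). Undifferentiated spermatogonial markers summed to 1310 to 1617 in ScAtrxKO testes and 2051 to 2170 in wild-type testes (of 10, 1 rose and 3 fell). Differentiating spermatogonial markers summed to 4333 to 4380 in ScAtrxKO testes and 5210 to 6294 in wild-type testes (of 6, 0 rose and 3 fell). Under neqc, a normalization that models the background, 1 of the 10 rose and 1 fell, and 0 of the 6 rose and 2 fell. With neqc values 9 of the 11 macrophage markers rose, as did 2 of the 6 Leydig cell markers. The same held for 3 of the 6 endothelial and 2 of the 11 Sertoli cell markers. In whole testes, fewer cells of a type cannot be told apart from less RNA per cell. The marker lists were chosen with earlier results of these data known, so the counts only describe them.

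A row was tested if its detection p, the chance of such a signal from negative control beads, was under 0.01 on at least 1 array. By this rule 13026 rows were tested with limma on the normalized log2 values. Of the niche factors CSF1, DHH, PDGFA and ETV5 were tested, each detected on all 6 arrays, whereas KITL, GDNF, FGF2, CXCL12, BMP4 and JAG1 were detected on none. At an adjusted p under 0.05, 1 of the 4 tested members was called, higher in ScAtrxKO testes, against 13.0% of all tested rows (7.47% higher and 5.50% lower). At a fold change of at least 1.5 as well, 0 members were called, against 1.30% of rows. The median log2 difference of the 4 was 0.07, and that of all tested rows was -0.01. Taken over all 10 rows, the 3 values of ScAtrxKO and of wild-type testes did not overlap for 4 members, KITL, CSF1, CXCL12 and ETV5, with ScAtrxKO higher each time, whereas 21.8% of all rows did not overlap in one direction or the other.

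**Figure D1:**
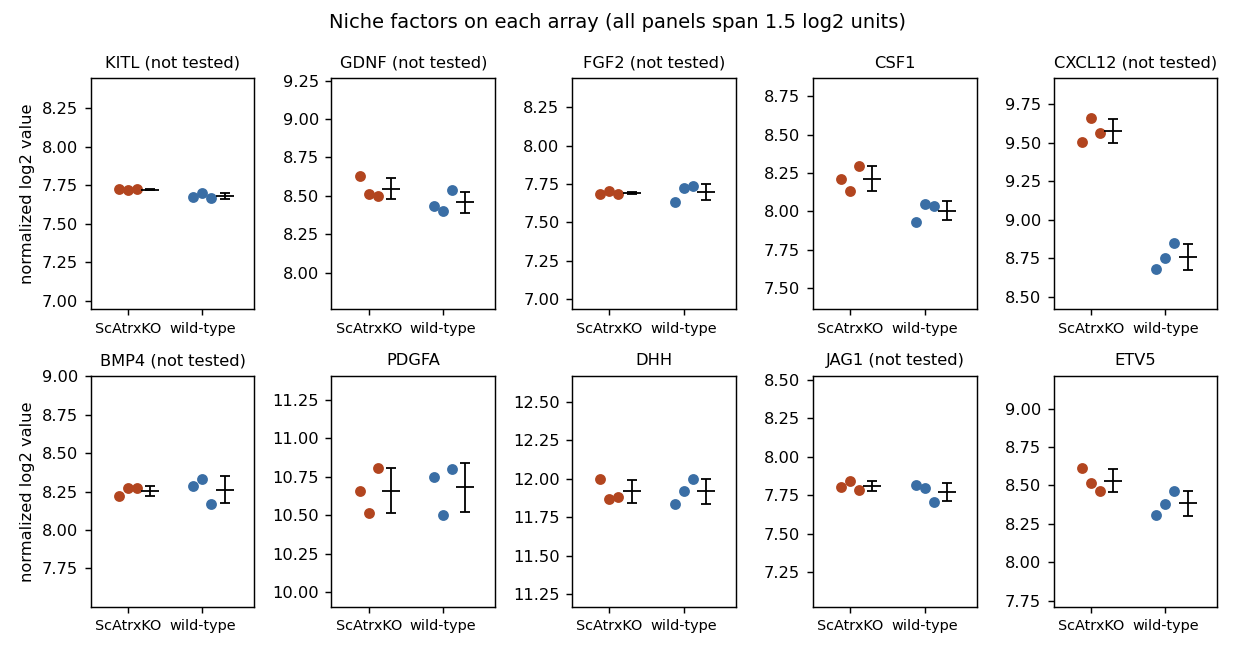
Normalized log2 values of the 10 niche factors, with ScAtrxKO arrays in red at the left and wild-type arrays in blue at the right of each panel, the mean and SD as black bars (n = 3), and a vertical axis of the same length in all panels. The 3 ScAtrxKO values of CXCL12 lie between 9.51 and 9.66 and its wild-type values between 8.68 and 8.85, the widest gap of the 10.

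Csf1, the growth factor of macrophages and a signal for spermatogonial stem cells, had normalized log2 values of 8.21, 8.14 and 8.30 in ScAtrxKO testes, against 7.93, 8.05 and 8.03 in wild-type testes. Every ScAtrxKO array was above every wild-type array, but ScAtrxKO array 2 was close to wild-type arrays 2 and 3. The log2 difference was 0.21 (SE 0.06, 95% interval 0.08 to 0.34, limma adjusted p = 0.0467), a fold change of 1.16 on the stabilized scale, which compresses differences of dim genes. Scaled intensities, which are not compressed, averaged 131 ± 24.3 in ScAtrxKO and 72.8 ± 15.5 in wild-type testes (SD, n = 3 each). The call was lost without any single array (adjusted p between 0.0553 and 0.122 in limma), under neqc (0.0979) and with quantile-normalized log2 intensities (0.0841), so the call was close to the threshold. The 11 markers of macrophages, the cells that answer CSF1, were all higher in ScAtrxKO testes (median log2 difference 0.76). Their part in the Csf1 result was not tested. Whole testes were measured, so the cells that carried the Csf1 difference are not known.

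Cxcl12, the chemokine that draws and holds stem cells carrying CXCR4, had normalized log2 values of 9.51, 9.66 and 9.56 in ScAtrxKO testes, against 8.68, 8.75 and 8.85 in wild-type testes. The corresponding background-subtracted intensities were 628, 952 and 866 in ScAtrxKO and 261, 293 and 332 in wild-type testes. The genotypes were well separated, since the lowest ScAtrxKO array was further from the highest wild-type array than any pair of arrays of a genotype were from each other. The detection p nevertheless stayed between 0.0131 and 0.0733 on the 6 arrays.

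In a fit of all 30774 rows with no detection filter, the log2 difference of Cxcl12 was 0.82 (SE 0.05, 95% interval 0.69 to 0.95, limma adjusted p = 6.2e-04). In that fit 5.26% of rows were called, and 0.546% at a fold change of at least 1.5 as well, Cxcl12 among them. It ranked 56 by log2 difference among all rows higher in ScAtrxKO testes. The neqc values gave 1.09, quantile-normalized log2 intensities 1.25 and median-scaled intensities 1.25 (limma adjusted p = 0.0078, 0.0255 and 0.0253). Without any single array it was 0.78 to 0.86 (limma adjusted p from 0.0019 to 0.0063). The fit without a filter was run for all rows, and the choice to read Cxcl12 from it was made after its values were seen.

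The brightness and the detection p of Cxcl12 did not go together as in most rows. Of the rows at least as bright as Cxcl12 on the same array, 6.32 to 8.90% were not detected. Most detection p-values in the table are whole multiples of 1/936, within a tolerance of 6e-06, but those of Cxcl12 were off these steps on all 6 arrays. Among rows at least as bright, 42.8 to 47.5% of those off the steps were not detected, against 0.204 to 0.350% of those on them. KITL, GDNF and BMP4 were off the steps on all 6 arrays too, while the 4 tested members were on them throughout. The methods state that probes were averaged to gene rows. Neither they nor the labels state how the detection p of such a row was obtained from its probes. For the rows off the steps the meaning of a missing detection call is therefore uncertain.

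Cxcl12 is made by Sertoli cells and also by endothelial and other stromal cells of the interstitium. The 6 tested endothelial markers had a median log2 difference of 0.24, the 6 Leydig cell markers one of 0.41, and the 11 Sertoli cell markers one of -0.02. Of the peritubular myoid markers 2 were tested and 1 rose, and their summed scaled intensity was 6205 to 6886 in ScAtrxKO and 6548 to 7388 in wild-type testes. The part of these cells in the Cxcl12 result was not tested.

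**Figure D2:**
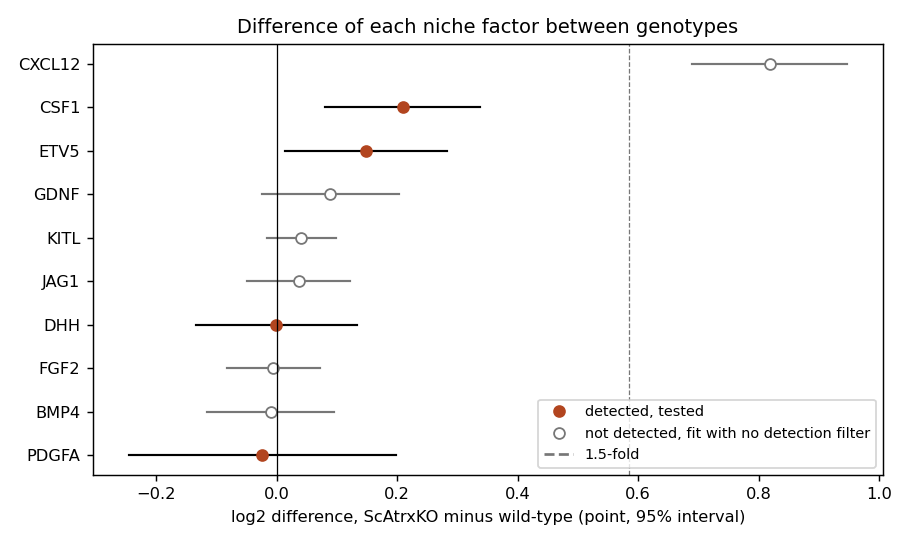
Log2 difference of each niche factor, ScAtrxKO minus wild-type, with its 95% interval from limma; filled points are tested rows, open points are undetected rows from the fit with no detection filter, and the dashed line marks 1.5-fold. CXCL12 at 0.82 is the only point beyond that line, and CSF1 and ETV5 are the only other members whose interval lies above 0.

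Gdnf, Fgf2 and Kitl did not separate the genotypes at a level the arrays could measure. Gdnf had normalized log2 values of 8.63, 8.51 and 8.50 in ScAtrxKO testes, against 8.43, 8.40 and 8.54 in wild-type testes. Wild-type array 3 was above ScAtrxKO arrays 2 and 3, so the genotypes overlapped. With no filter the log2 difference was 0.09 (95% interval -0.02 to 0.20, limma adjusted p = 0.429). Fgf2 had intensities of -1.2, 2.1 and -1.2 in ScAtrxKO testes, against -10.8, 6.1 and 9.5 in wild-type testes. All lay around 0, where the array cannot order them. Kitl had intensities of 5.1, 5.5 and 8.0 in ScAtrxKO testes, against -2.8, 1.8 and -5.3 in wild-type testes. Although the Kitl arrays did not overlap, every value was within 10 units of 0 and none was detected, and no level of Kitl could be given in either genotype. Its normalized log2 values, 7.72, 7.72 and 7.73 in ScAtrxKO and 7.68, 7.70 and 7.66 in wild-type testes, differed by 0.04 (limma adjusted p = 0.486 with no filter).

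Etv5 had normalized log2 values of 8.62, 8.51 and 8.47 in ScAtrxKO testes, against 8.31, 8.38 and 8.46 in wild-type testes. ScAtrxKO array 3 and wild-type array 3 nearly met, and the other arrays lay apart. The log2 difference was 0.15 (SE 0.06, 95% interval 0.01 to 0.28), and its limma adjusted p of 0.138 did not pass. Scaled intensities averaged 235 ± 26.5 in ScAtrxKO and 180 ± 25.7 in wild-type testes (SD, n = 3 each). Leaving out an array moved the difference between 0.11 and 0.19. A separate row that carries a synonym of the gene, 8430401F14RIK, was undetected, with intensities of 27.5, 26.8 and 25.6 in ScAtrxKO and 12.0, 14.7 and 30.7 in wild-type testes that overlapped.

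Dhh, which instructs Leydig and peritubular cells through PTCH1 and SMO, had normalized log2 values of 12.00, 11.87 and 11.88 in ScAtrxKO testes, against 11.83, 11.92 and 12.00 in wild-type testes. The ranges coincided almost fully. The log2 difference was within 0.01 of 0 (SE 0.06, 95% interval -0.13 to 0.13, limma adjusted p = 0.999), so that a change of 1.5-fold on this scale lay outside the interval. Pdgfa, whose receptor PDGFRA sits on interstitial cells, had normalized log2 values of 10.66, 10.51 and 10.81 in ScAtrxKO testes, against 10.75, 10.50 and 10.80 in wild-type testes. Its arrays varied more within a genotype than any other member, and the means were 10.66 ± 0.15 in ScAtrxKO and 10.68 ± 0.16 in wild-type testes (SD, n = 3 each). The log2 difference was -0.02 (95% interval -0.25 to 0.20, limma adjusted p = 0.905).

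Bmp4, a signal of the BMP family, had normalized log2 values of 8.22, 8.27 and 8.27 in ScAtrxKO testes, against 8.29, 8.33 and 8.17 in wild-type testes, and the genotypes overlapped. With no filter its log2 difference was -0.01 (95% interval -0.12 to 0.10). Jag1, a membrane-bound Notch ligand, had intensities of 19.8, 39.2 and 23.9 in ScAtrxKO testes, against 25.3, 21.9 and 3.1 in wild-type testes. ScAtrxKO array 2 was high and wild-type array 3 low, and the rest were mixed. With no filter its log2 difference was 0.04 (95% interval -0.05 to 0.12, limma adjusted p = 0.728).

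**Figure D3:**
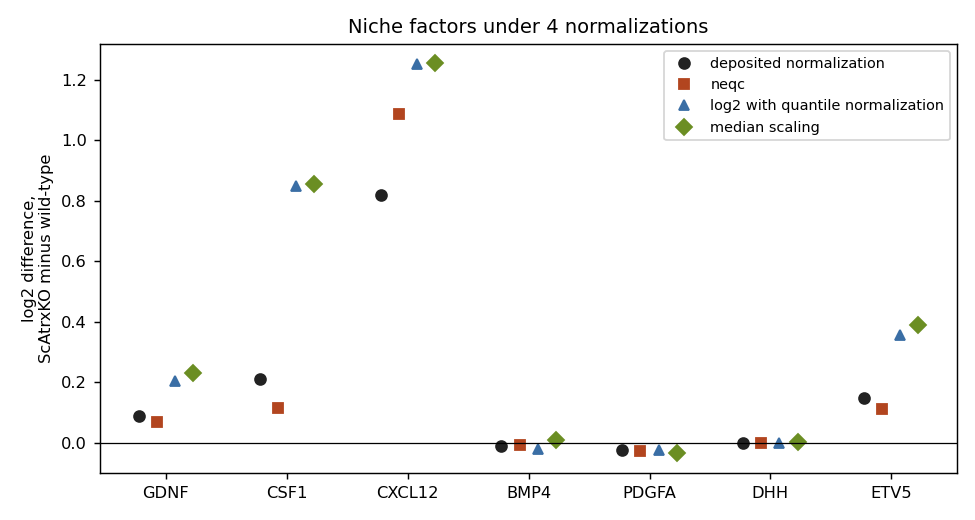
Log2 difference, ScAtrxKO minus wild-type, of 7 niche factors (KITL, FGF2 and JAG1, with intensities of at most 39.2, are left out) under the deposited normalization, neqc, log2 with quantile normalization and median scaling. CXCL12 is the highest under all 4, from 0.82 to 1.25, CSF1 ranges from 0.12 to 0.86, and DHH and PDGFA stay within 0.04 of 0.

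The receptors that receive the niche signals moved in both directions. Of 24 receptor rows 19 were tested. Of these 4 rose and 2 fell, against 7.47% and 5.50% of all tested rows, and their median log2 difference was 0.09. This list and that of the response genes were chosen with earlier results of these data known, so the counts only describe them. Pdgfra, the PDGFA receptor of interstitial cells, had normalized log2 values of 11.00, 11.03 and 11.31 in ScAtrxKO testes, against 10.49, 10.47 and 10.32 in wild-type testes (log2 difference 0.69, 1.61-fold, limma adjusted p = 0.00282). Fgfr2, an FGF receptor, had 8.90, 9.07 and 9.36 in ScAtrxKO testes, against 8.32, 8.31 and 8.43 in wild-type testes (0.76, 1.69-fold, limma adjusted p = 0.00400). Both were detected on 2 ScAtrxKO arrays and 1 wild-type array, and neither overlapped between genotypes. The detection p-values of Pdgfra, Fgfr2, Kit, Ret, Fgf10 and Wnt5a were off the steps on all 6 arrays, and those of Csf1r on 4. The numbers of arrays that detected these genes therefore carry the same uncertainty as for Cxcl12. Csf1r, Ret and Fgf10 entered the test only through arrays of the genotype where they were higher, so the filter favours their calls. With no filter their limma adjusted p-values were 0.0129, 0.0400 and 0.0115 under the deposited normalization. The neqc values with no filter gave 0.0692, 0.104 and 0.0476 in limma. Quantile-normalized log2 intensities gave 0.0659, 0.202 and 0.122, and median-scaled intensities 0.0746, 0.193 and 0.125. Among these other normalizations with no filter, only Fgf10 under neqc passed.

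Csf1r, the macrophage receptor that answers CSF1, was detected on all 3 ScAtrxKO arrays and on no wild-type array. Its normalized log2 value was higher in ScAtrxKO testes by 0.35 (limma adjusted p = 0.00840), and by 0.19 under neqc. With quantile-normalized log2 intensities and with median scaling the difference was 1.46, so its size depended on the normalization. Csf1r is one of the macrophage markers counted above. Smo, the transducer of DHH signals, was higher by 0.24 on the log2 scale (limma adjusted p = 0.00998), and Ptch1, which binds DHH itself, differed by 0.07 and did not pass (0.322).

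Kit, the receptor for KIT ligand on differentiating spermatogonia, had normalized log2 values of 9.73, 9.64 and 9.60 in ScAtrxKO testes, against 10.02, 9.97 and 10.01 in wild-type testes. All ScAtrxKO arrays were lower, with a log2 difference of -0.35 (limma adjusted p = 0.00351). Ret, the GDNF receptor on undifferentiated spermatogonia, was detected on 0 ScAtrxKO arrays and 1 wild-type array. Its log2 difference was -0.24 (limma adjusted p = 0.0293), and -0.14 under neqc. With quantile-normalized log2 intensities it was -0.97 and with median scaling -0.95. The call of Ret was lost in 8 of 14 alternatives, among them those without ScAtrxKO array 1 or 2 or any of the wild-type arrays (highest limma adjusted p of these 0.0898). Gfra1, the co-receptor that binds GDNF, differed by 0.02 (0.886), and Cxcr4, the CXCL12 receptor, by 0.09 (0.248), and neither passed. Cxcr4 was detected on all 6 arrays. Gfra1 was detected on 0 ScAtrxKO arrays and 1 wild-type array, at intensities of 4.7 to 39.5, so its small difference cannot show an unchanged level. Kit and Ret are among the spermatogonial markers whose summed levels were lower in ScAtrxKO testes, and the part of germ cell number in these results was not tested.

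The 26 response genes were chosen as genes that answer these signals in the receiving or the producing cell. Of them 21 were tested, 3 rose and 0 fell, against 7.47% and 5.50% of all tested rows, and the median log2 difference was 0.00. Id1, an inhibitor of differentiation induced by BMP signals, had normalized log2 values of 9.41, 9.60 and 9.84 in ScAtrxKO testes, against 9.08, 8.94 and 8.95 in wild-type testes (log2 difference 0.63, 1.54-fold, limma adjusted p = 0.00710). Id2, of the same family, was higher by 0.26 (limma adjusted p = 0.0480), a call lost in 11 of 15 alternatives, including the removal of any single array (up to 0.134). Spred1, a brake on the growth factor cascade below FGF and KIT receptors, was higher by 0.24 (limma adjusted p = 0.0196), a call lost in 5 of 15 alternatives (up to 0.0816), among them those without ScAtrxKO array 2 or wild-type array 1 or 2 (up to 0.0715). Id3 differed by 0.30 (0.0866) and Gli2, a transcription factor of the hedgehog pathway, by 0.15 (0.0719), and neither passed. Gli1, of the same pathway, was not detected on any array. Bcl6b, Lhx1 and Etv4, germ cell targets of GDNF picked after their values were seen, had log2 differences of -0.04, 0.00 and 0.02. Their limma adjusted p-values were 0.554, 0.987 and 0.791. Lhx1 and Etv4 were each detected on 2 of the 6 arrays, at intensities of at most 34.2 and 49.6. Such dim rows cannot show that a level was unchanged. Id4, in the same list, had a log2 difference of -0.20 and did not pass (limma adjusted p = 0.167), and the row T was not detected.

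**Figure D4:**
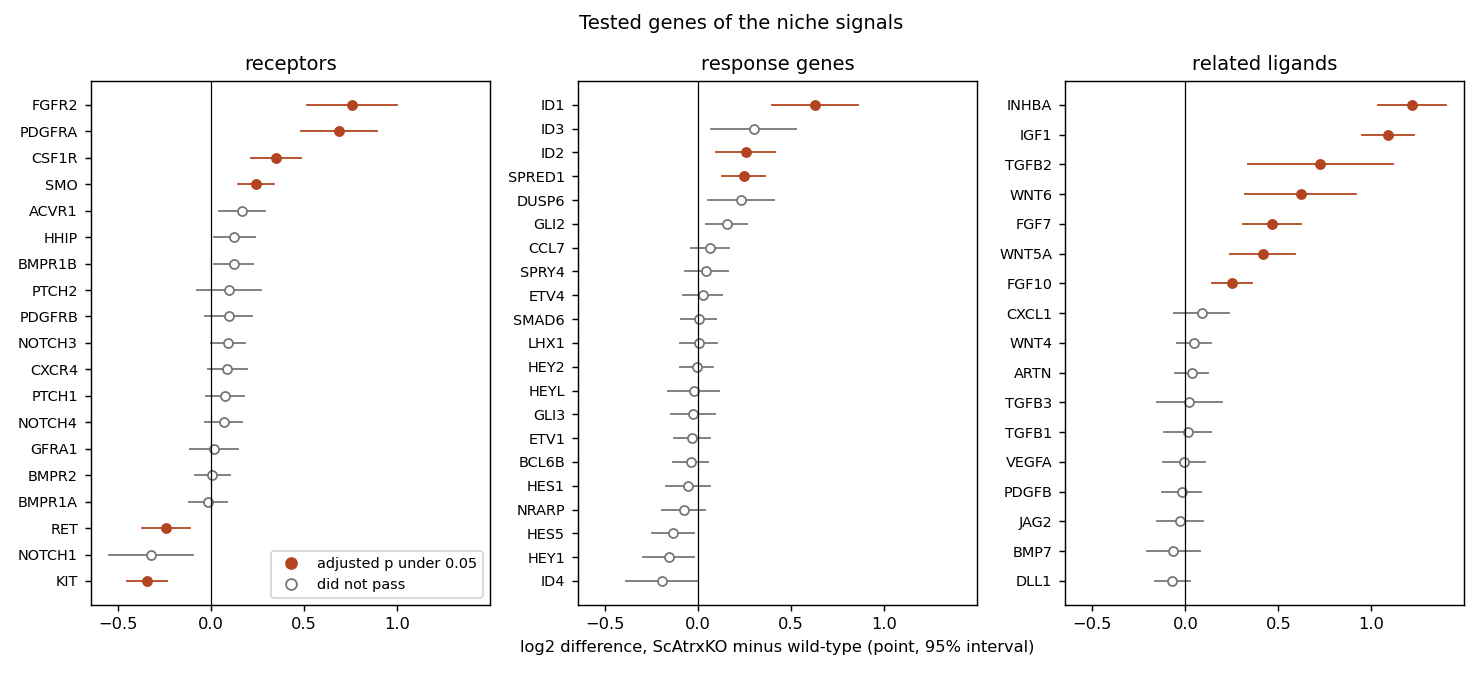
Log2 difference of each tested receptor, response gene and related ligand, ScAtrxKO minus wild-type, with its 95% interval from limma; red points passed an adjusted p of 0.05 and open points did not. Among 17 related ligands 7 lie to the right of 0 in red and 0 to the left, among 19 receptors 4 and 2, and among 21 response genes 3 and 0.

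Of 40 related ligands of the same families or of other Sertoli cell signals, 17 were tested. Of these 7 rose and 0 fell, against 7.47% and 5.50% of all tested rows, and the median log2 difference was 0.05. The list was chosen with earlier results of these data known, so the counts only describe it. Inhba, the activin A subunit, had normalized log2 values of 9.47, 9.54 and 9.75 in ScAtrxKO testes, against 8.27, 8.44 and 8.40 in wild-type testes (log2 difference 1.22, 2.33-fold, limma adjusted p = 2.0e-04). Igf1, a growth factor of many cells of the testis, had 9.66, 9.79 and 9.61 in ScAtrxKO testes, against 8.52, 8.64 and 8.64 in wild-type testes (1.09, 2.13-fold, limma adjusted p = 1.0e-04). No ScAtrxKO value of either gene came near a wild-type value.

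Fgf7, a growth factor of stromal cells, was higher in ScAtrxKO testes by 0.46 (limma adjusted p = 0.00511) and Tgfb2, a TGF-beta ligand, by 0.73 (0.0293), with arrays at 8.65, 8.91 and 9.44 in ScAtrxKO against 8.31, 8.24 and 8.28 in wild-type testes. The spread of Tgfb2 among ScAtrxKO arrays was wide, and its call was lost in 8 alternatives, among them those without ScAtrxKO array 2 or any of the wild-type arrays (up to 0.101). Wnt6, a WNT ligand, was higher by 0.62 (1.54-fold, limma adjusted p = 0.0200) and lost its call in 5, among them those without ScAtrxKO array 1 or 2 (up to 0.0696). Fgf10, a relative of Fgf7, was higher in ScAtrxKO testes by 0.25, and by 0.11 under neqc (limma adjusted p = 0.0124, and 0.0529 without wild-type array 2). With quantile-normalized log2 intensities the difference was 4.78 and with median scaling 4.61. Its wild-type intensities of 8.1, -4.3 and 1.4 lay around the floor of 1, so its size is not known. Fgf10 was detected on 1 ScAtrxKO array and 0 wild-type arrays, and entered the test only through that ScAtrxKO array. Wnt5a, another WNT ligand, was higher by 0.41 (0.0126, and 0.0638 under neqc) but was detected on 0 ScAtrxKO arrays and 1 wild-type array. Dll1, a Notch ligand like Jag1, had a log2 difference of -0.07 and did not pass (limma adjusted p = 0.311). The direction was the same in every alternative for the genes of the 3 lists named here that passed.

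The tested rows whose 6 values were most like those of Csf1 were Sepn1, Tcf3 and Gli2, with Pearson r of 0.994, 0.993 and 0.993 over the 6 arrays. For Cxcl12, chosen after its values were seen, they were Rnf213, Rab7 and Plekhm3, with r of 0.999, 0.996 and 0.996. These are descriptions over 6 arrays that share genotype and are the highest of 13026 rows.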

How the data were processed

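Testis RNA of 6 samples was hybridized to Illumina MouseWG-6 v2 arrays, which have a single colour. With GenomeStudio, version not given in the sources used here, the authors subtracted background, averaged probes to gene rows and deposited a linear intensity with a detection p-value per array. The authors then applied variance stabilization and quantile normalization in lumi, and deposited values on a log2 scale. Their deposited tables of fold changes, p-values and GO terms were not used. Columns named M were taken as the ScAtrxKO arrays of the same number, and 0 columns were unmapped.

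The log2 values were fitted with limma 3.58.1 in R 4.3.3, with genotype as the only term and Benjamini-Hochberg adjustment over 13026 rows detected (p under 0.01) on at least 1 array. The procedure was tested on simulated data first. The niche factors, gene lists and markers were chosen with earlier results of these data known. All niche factors are named, and from each list every gene past an adjusted p of 0.05 and 1.5-fold plus up to 4 more by smallest p. Ptch1, Gfra1, Cxcr4, Bcl6b, Lhx1 and Etv4 were added after their values were seen, as receptors or targets of the niche factors. Id4, T and Gli1, of the response gene list, and Nrg1, of the related ligands, were also added after their values were seen. Where no array of a genotype detected a gene, its fold is not given, because its level there is only bounded. Gene symbols, positions and promoters are from RefSeq (GRCm38.p6). Alternatives were neqc (offset 16), quantile-normalized log2 intensities and scaling to the median (floor of 1), the table of values of the series, no detection filter or detection on 3 arrays, a fit with an intensity trend and robust estimation, one with array weights, one with a replicate block, and the removal of each array. A detection limit of 0.05, and the other refits of Cxcl12 with no filter, were added after the data were seen. The number of arrays limits the precision, since 3 against 3 allows no exact two-sided permutation p under 0.1.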

Additional observations from a re-analysis of the deposited data

How the results depend on the processing

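Csf1 was the 1 niche factor called, and the count was 0 under neqc, log2 with quantile normalization, median scaling, array weights and a fold limit of 1.5, and 0 to 0 without any single array. With no detection filter the count was 1, but this was Cxcl12, and Csf1 did not pass (limma adjusted p = 0.0620). Over 16 alternatives the adjusted p of Csf1 ran from 0.0180 to 0.122, and it passed in 4. With a detection limit of 0.05 the count was 2, Csf1 and Cxcl12, of 8 tested. Cxcl12 passed in 12 of 12 alternatives with no filter, at a highest adjusted p of 0.0255, and with that limit.

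The replicate block gave 0 niche factors (Csf1 adjusted p = 0.0612 in limma). The labels give no link between arrays of the same number. Their deviations correlated at 0.00, 0.05 and 0.08, and those of the other pairs at -0.07 to 0.04. A shared litter or batch was not tested.

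The 6 receptors called became 2 with the fold limit. The 3 response genes became 1 with log2 quantile normalization and with the fold limit, 5 with an intensity trend and robust estimation, and 1 to 3 without single arrays, with 1 without ScAtrxKO array 2 or wild-type array 2. The 7 related ligands became 4 under neqc and 4 with the fold limit. The sign of differences near 0 changed, that of Dhh to 0.0030 under median scaling and between -0.0425 and 0.0393 without single arrays, and that of Pdgfa between -0.1143 and 0.0506. The cause was not tested. Dim rows have uncertain differences: that of Kitl reached 2.34 with log2 quantile normalization, on intensities around the floor of 1.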

Other observations

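Among the related ligands, Nrg1 (NRG1), a neuregulin that Sertoli cells signal with, was not detected on any array. Its intensities were 21.6, 38.7 and 29.4 in ScAtrxKO testes, against 3.4, 0.2 and 1.1 in wild-type testes, and with no detection filter its normalized log2 difference was 0.12 (limma adjusted p = 0.0356). The no-filter adjusted p in limma was 0.0481 under neqc, 0.0519 with quantile-normalized log2 intensities and 0.0645 with median scaling. Its detection p ran from 0.225 to 0.7125, and its wild-type intensities were near 0, so no wild-type level could be given. With no filter 115 rows outside the test passed the adjusted p of 0.05, and 12 of them also reached 1.5-fold, Cxcl12 (CXCL12) among them. Detection p-values off the steps of 1/936 were carried by 21.9% of the untested and 25.5% of the tested rows.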
